A study of Mus musculus with 5 samples.

Results

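The Hoxd cluster is a row of 9 homeobox genes on mouse chromosome 2, and its chromatin was read here from 4 lists of called regions. All rows touching a window of 130 kb (build mm9) were taken, from Evx2 and Hoxd13 at its low end, 198 bp below position 74480198, to Hoxd1 at its high end, 1981 bp above position 74608019. The 600 kb on either side served as flanks. There were 21 such rows of 166982 in the 4 lists: 6 H3K27me3 regions, 14 H3K4me1 regions, 1 C/EBPα peak and 0 Hoxa9 peaks. The flanks held 31 rows.

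The lists came from chromatin immunoprecipitation with sequencing (ChIP-seq) of one kind of cell. Bone marrow of C57B6 mice was depleted of lineage-positive cells, transduced with the retroviruses MIGR1-HA-Hoxa9 and MIGR1-Flag-Meis1 and cultured with IL3. Every library, the input included, therefore carried both transgenes, and no untransduced cells were compared. Hoxa9 was precipitated through the HA tag, so its list reports the introduced protein and not endogenous Hoxa9. C/EBPα, a leucine zipper factor of myeloid differentiation, and the marks H3K4me1 and H3K27me3 were precipitated with antibodies against each. There was 1 library per precipitation, so no value has a replicate error and no difference was tested.

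Hox genes encode homeodomain transcription factors that give cells their position along the body axis, and their order on the chromosome follows the order of their use in the embryo. Genes that are not in use are held silent by Polycomb complexes, of which PRC2 places H3K27me3, often in broad blocks. H3K4me1 is found at enhancers and around promoters, and Polycomb-marked genes of immature cells can carry histone H3 lysine 4 methylation as well. Hoxd genes are best known from the limbs, trunk and genital bud, whereas Hoxa genes are the ones most used in early blood cells and in leukaemia.

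In the RefSeq annotation (GRCm38.p6) the order along the chromosome is Lnpk, Evx2, Hoxd13, Hoxd12, Hoxd11, Hoxd10, Hoxd9, Hoxd8, Hoxd3, Hoxd4, Hoxd1 and Mtx2, leaving out noncoding genes, with Hoxd4 inside the span of Hoxd3. Hoxd13 and Hoxd12 act in the digits, Hoxd11, Hoxd10 and Hoxd9 in more proximal limb and the posterior trunk, Hoxd9 being the paralogue of Hoxa9. Hoxd8, Hoxd4 and Hoxd3 act further forward, and Hoxd1 in sensory neurons. Evx2 is a homeobox gene outside the Hox family proper, and Lnpk and Mtx2 encode proteins of the endoplasmic reticulum and of mitochondria. The lists name no genes and are in mm9, so no row could be assigned to a single gene: values below belong to stretches of the window, read from the Evx2 and Hoxd13 end to the Hoxd1 end.

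The promoters of the cluster are shown for their CpG content, a sequence feature often seen where H3K27me3 is placed. RefSeq promoters (GRCm38.p6, 250 bases before to 50 after the start, so 300 in all) were matched for all 9 Hoxd genes, with 2 starts for Hoxd11. The 250 bases before the start are printed 5′ to 3′ on the plus strand, with CG in capitals. They are chr2:74667975-74668224 for Hoxd13, chr2:74704365-74704614 for Hoxd8 and chr2:74762730-74762979 for Hoxd1, positions of GRCm38.p6 that are not on the mm9 scale of the regions. Hoxd13 and Hoxd1 stand at the ends of the cluster, and Hoxd8 is poor in CG.
Hoxd13: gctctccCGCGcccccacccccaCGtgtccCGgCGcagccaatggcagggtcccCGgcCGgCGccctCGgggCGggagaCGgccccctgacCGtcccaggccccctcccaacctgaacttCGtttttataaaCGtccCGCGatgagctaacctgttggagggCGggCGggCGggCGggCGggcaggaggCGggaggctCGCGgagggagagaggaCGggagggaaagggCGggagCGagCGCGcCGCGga
Hoxd8: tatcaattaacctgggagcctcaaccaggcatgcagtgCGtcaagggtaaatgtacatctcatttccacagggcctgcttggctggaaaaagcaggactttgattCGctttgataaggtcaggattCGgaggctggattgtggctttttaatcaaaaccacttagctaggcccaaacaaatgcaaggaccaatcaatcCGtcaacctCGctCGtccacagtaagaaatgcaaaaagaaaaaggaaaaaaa
Hoxd1: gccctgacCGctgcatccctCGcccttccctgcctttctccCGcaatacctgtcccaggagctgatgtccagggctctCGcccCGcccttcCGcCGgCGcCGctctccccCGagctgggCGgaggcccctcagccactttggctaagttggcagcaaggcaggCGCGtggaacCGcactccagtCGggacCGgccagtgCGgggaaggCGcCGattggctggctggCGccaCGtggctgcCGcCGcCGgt

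Over the full 300 bases the 10 Hoxd promoters had a median of 20 CG pairs, with a lowest of 4 and a highest of 37. The median over all 32851 promoters of that table was 7. Hoxd13 had 37 CG pairs, as many as or more than 95.05% of all promoters, and Hoxd1 had 29. Hoxd10 had 22, Hoxd9 and Hoxd3 had 20 each and Hoxd12 had 13. Hoxd8 had 6, under the median of all promoters, and Hoxd4 had 4. Hoxd11 had 4 at one start and 25 at the other. CpG content thus differed widely among promoters of the one cluster.

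Letters bound by the 2 factors in general were searched on both strands of the same 300 bases. TTTATNG, a run of the kind posterior Hox proteins bind, was in 1 of 10 Hoxd promoters, that of Hoxd4, and in 10.9% of all promoters. The Hoxd4 promoter held it 3 times. The match before the start is in capitals in the bases printed here (chr2:74721728-74721977, GRCm38.p6, plus strand), and the other 2 lie after it.
Hoxd4: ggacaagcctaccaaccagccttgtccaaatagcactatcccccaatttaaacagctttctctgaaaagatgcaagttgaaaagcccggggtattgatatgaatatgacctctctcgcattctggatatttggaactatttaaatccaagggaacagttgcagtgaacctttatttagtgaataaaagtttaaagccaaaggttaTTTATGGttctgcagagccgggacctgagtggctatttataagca

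TTGCNNAA, a loose form of the C/EBP site, was in 3 of 10 Hoxd promoters, those of Hoxd12 and of both starts of Hoxd11, and in 10.8% of all promoters. The stricter TTGCGCAA, which the loose form includes, was in 0 of 10 and 0.183% of all, and the composite TGATTTAT, which shares letters with TTTATNG, was in 0 of 10 and 0.977%. These are matches of letters and not binding sites.

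One microRNA gene, Mir10b, lies inside the annotated spans of Hoxd4 and Hoxd3 in RefSeq. Its 5p product is shown with its seed (bases 2 to 8) in capitals, beside that of Mir10a on chromosome 11, which has the same seed.
mmu-miR-10b-5p: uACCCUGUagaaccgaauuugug
mmu-miR-10a-5p: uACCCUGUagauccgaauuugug

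H3K27me3 covered the window almost from end to end. The 6 regions of the window took up 126809 bp of it, or 97.5% of its bases, against 2.32% of the flanks, 3.54% of chromosome 2 and 2.51% of the span of the lists over 20 chromosomes. The first base of the mark lay 198 bp inside the low end of the window and the last 1981 bp inside the high end. Between those bases, 127.822 kb apart, only 1013 bp were not covered. The window was set with the extent of this mark known. Its cover, the contrast with the flanks and the nearness of the mark to its ends are therefore a description. Extended by 10 kb at each end, the window was 85.4% covered. In bulk cells a called region does not tell whether every cell or chromosome carried the mark.

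**Figure D1:**
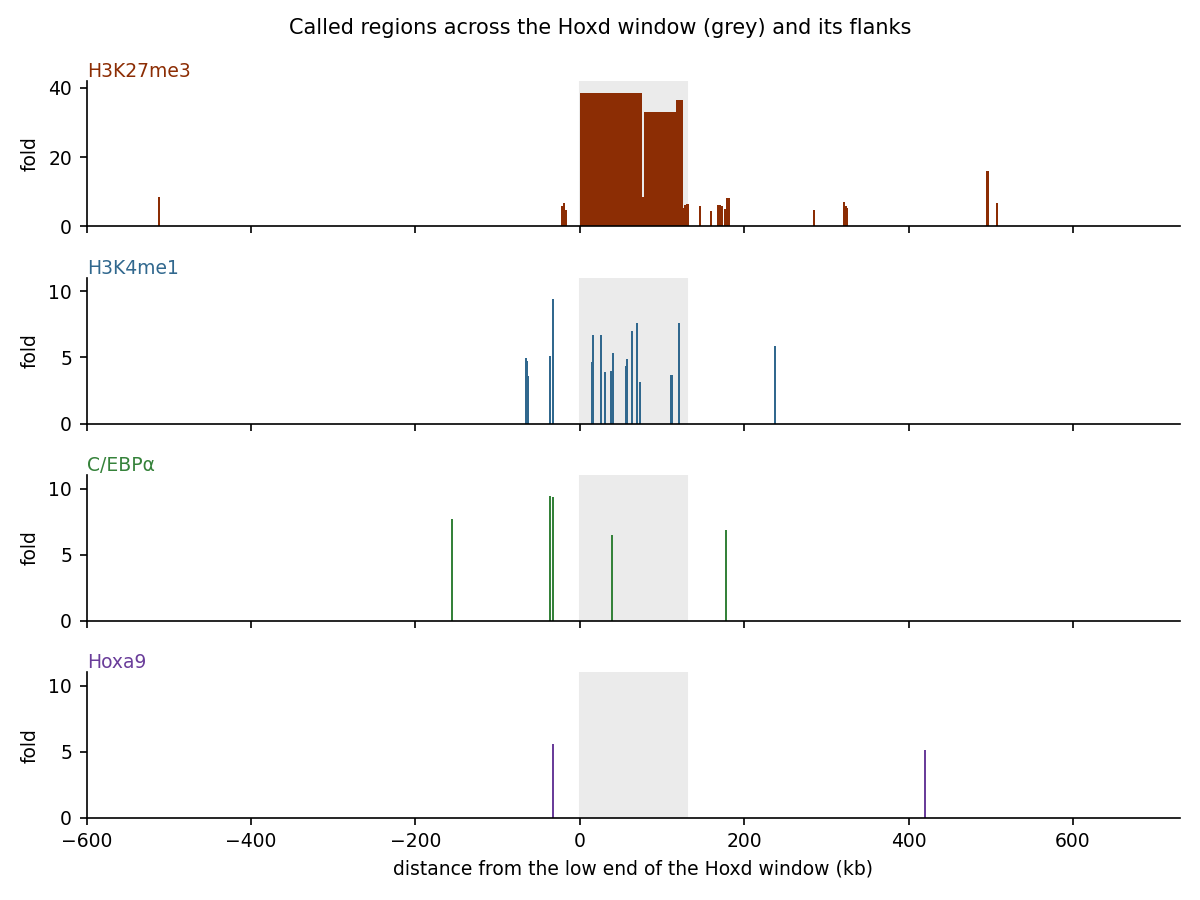
Called regions of the 4 lists, drawn as bars whose height is the fold enrichment of the row (each axis has its own scale), against distance in kb from the low end of the Hoxd window, which is shaded. Bars narrower than 2.5 kb are drawn 2.5 kb wide. H3K27me3 fills the shaded window, the 14 H3K4me1 regions lie mostly in its lower part, and Hoxa9 peaks appear only in the flanks.

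The widest region, 74480198 to 74555361, spanned 75164 bp at the Evx2 and Hoxd13 end. It held 18867 tags (aligned reads counted by the caller), or 251 per kb, with a fold enrichment over the caller's background of 38.6. It was the fourth widest of 33769 regions, and 99.9% of them had a fold enrichment as low or lower. The next large region, 74558652 to 74597094, spanned 38443 bp with 218 tags per kb and a fold enrichment of 33.18, and ranked 13 in width. The third, 74597201 to 74605210 at the Hoxd1 end, spanned 8010 bp with 185 tags per kb and a fold enrichment of 36.57. All 3 were therefore dense as well as wide: the median of the list was 58.4 tags per kb, 903 bp and a fold enrichment of 5.76. Regions of 10 kb or more made up 2.04% of the list, and 2 of the 6 in the window were that wide.

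The other 3 regions had lower values than these. One of 3115 bp, 74555477 to 74558591, lay between the widest and the second with 79.6 tags per kb and a fold enrichment of 8.46, still as high as or higher than 81.2% of the list. The remaining pair, 74605715 to 74607201 and 74607430 to 74608019, closed the high end with 63.9 and 57.6 tags per kb and fold enrichments of 5.42 and 6.09. The last region thus had 57.6 tags per kb against 251 in the first. These are averages over 590 bp and 75164 bp, so density at the 2 edges themselves was not compared.

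The breaks in the mark were short. They measured 115, 60, 106, 504 and 228 bp from the low end to the high end. None of the 14 H3K4me1 regions lay in a break. That was nearly fixed in advance, since the breaks made up 1013 bp and the narrowest of the 14 was 439 bp wide.

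**Figure D2:**
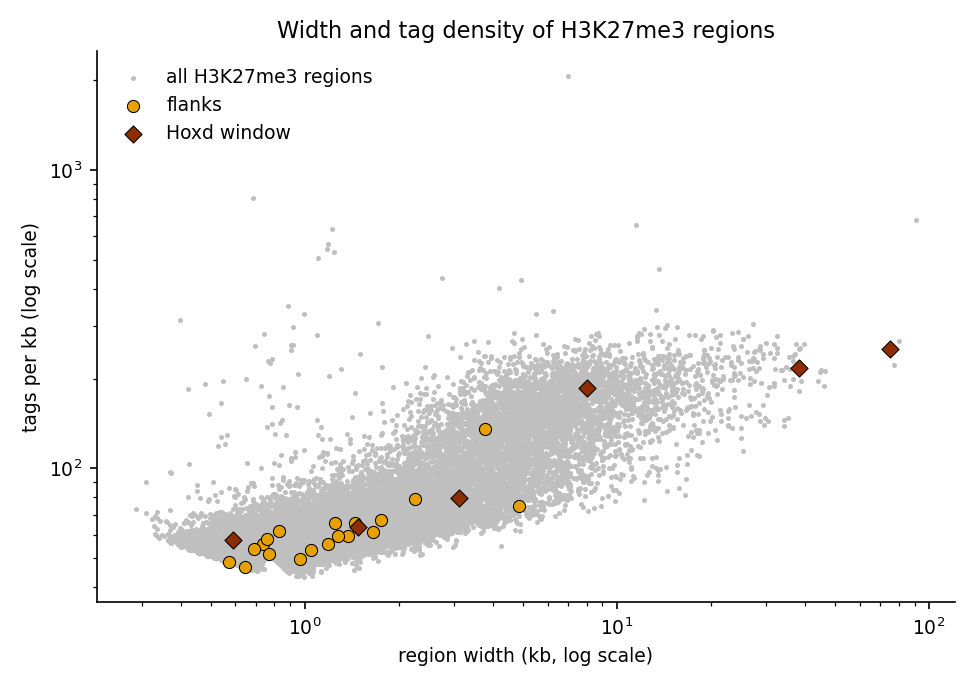
Width in kb against tags per kb, both on log scales, for each of the 33769 H3K27me3 regions (grey), the 6 of the Hoxd window (diamonds) and the 19 of its flanks (circles). The 3 large Hoxd regions, at 185 to 251 tags per kb, stand at the wide and dense end, while the other 3 lie among the flank regions.

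Set beside equal pieces of the genome, the Hoxd window was the most covered. Of 19784 tiles of 130 kb, 63.5% had no H3K27me3 at all, and 50 had it on 50% or more of their bases. The Hoxd tile had 97.5%, followed by 96.5% for a tile on chromosome 6 from 52130000 and 86.8% for one on chromosome 19 from 44720000. The tile grid on chromosome 2 was laid on the window, which favours it: with a grid from position 0 the best tile over the cluster had 91.0% and ranked 2. This alternative was added after the data were seen. The rank is a description, since the window was set with the extent of this mark known.

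**Figure D3:**
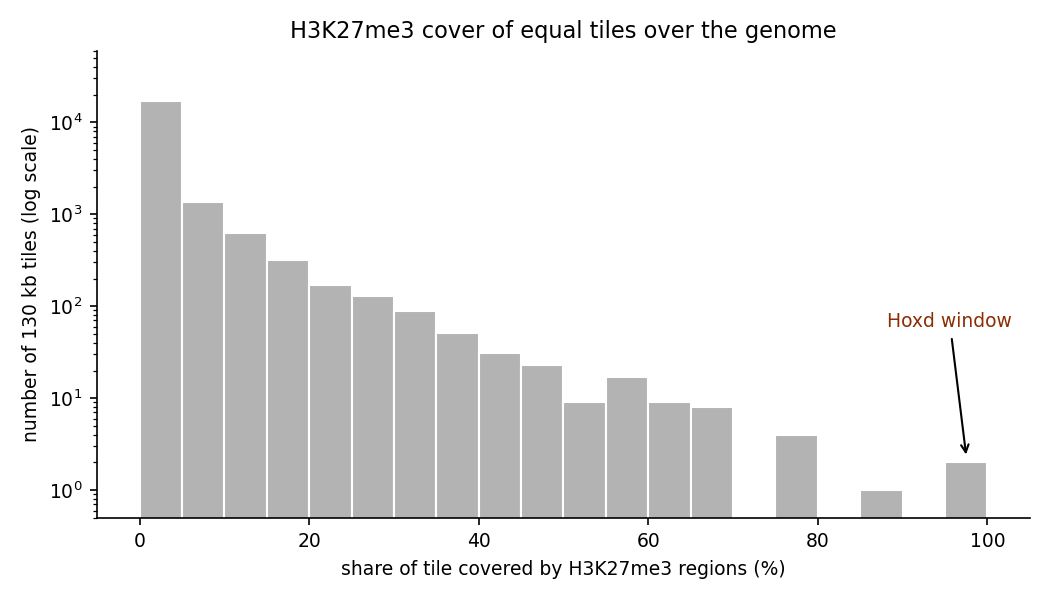
Number of 130 kb tiles (log scale) by the share of their bases covered by H3K27me3 regions, in steps of 5 percentage points, over 19784 tiles. The 2 tiles in the top step are the Hoxd window at 97.5% and the tile on chromosome 6 at 96.5%.

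The block was compared with those of other Hox clusters. Windows of 170 kb on chromosome 6 for Hoxa, 200 kb on chromosome 11 for Hoxb and 140 kb on chromosome 15 for Hoxc were set from general knowledge of mm9. None of the 3 could be checked against an annotation of that build. With regions under 1 kb apart joined, the Hoxd stretch of 127.822 kb was the second longest of 22673, after one of 147.958 kb at the Hoxa window, and the third was 93.826 kb on chromosome 8. H3K27me3 covered 93.8% of the Hoxa window and 83.5% of the Hoxb window. The widest single regions there were 80.386 kb with 267 tags per kb (fold enrichment 41.98) and 77.15 kb with 223 tags per kb (33.92). The cover of the Hoxd window came in 6 regions, against 16 and 30 in those longer windows. The Hoxc window held 0 H3K27me3 regions, the nearest lying 6995 bp below it at 102731774 to 102733004 with a fold enrichment of 5.76. With regions under 5 kb apart joined, broad blocks lay on both sides of the Hoxc window. One of 66887 bp ended at 102733004, and one of 77120 bp, 97.6% covered, ran from 102903865 to 102980984. If that window is misplaced, the value says nothing of Hoxc.

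With regions under 5 kb apart joined, the Hoxd block ran from 74480198 to 74611730, 131533 bp. It ranked 8 in width and 3 in tags among 15088 blocks. Among the 135 blocks of 50 kb or more it ranked 2 in tags per kb of block, at 222 against a median of 95.3. The single higher block, on chromosome 8, had 643. The Hoxd block was 97.4% covered, against a median of 78.9%.

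The calls beyond the edges of the block differed. At the low end, on the Evx2 side, the block ended with its widest region, whose density at the edge itself was not read. The next call outward was 16473 bp away. That was a group of 3 small regions between 74458008 and 74463724 with fold enrichments from 4.74 to 6.77, beyond which no region was called for 488833 bp. In the 50 kb next to the low end the mark covered 5.77% of bases, and 0% in each of the next 9 steps of 50 kb.

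At the high end, on the Hoxd1 side, calls thinned out over a longer way. The region nearest to the window, 74610448 to 74611730, lay 2428 bp from the last one inside, and 8 regions had their summits within the first 50 kb, which were 19.3% covered. The following 50 kb were 5.12% covered. Over 600 kb the high flank had 15 regions covering 3.79% and the low flank 4 covering 0.858%. Flank regions were much like the list, with a median of 59.2 tags per kb against 58.4. One far out in the high flank, 74974179 to 74977967, was stronger, with 136 tags per kb and a fold enrichment of 15.91. The difference between the sides comes from 1 library and was not tested.

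H3K4me1 was called at 14 places in the window, and all 14 lay whole within an H3K27me3 region. Over the whole list 6.85% of H3K4me1 regions touched one, and of H3K27me3 regions of 10 kb or more 86.2% touched H3K4me1. With 97.5% of the window under H3K27me3, an overlap of nearly all regions follows from the cover alone. The 14 covered 11354 bp, 8.73% of the window, or 10.8 regions per 100 kb, against 0.5 per 100 kb in the flanks and 3.89 over the span of the lists. Of 19784 tiles of 130 kb, 2977 held 14 or more H3K4me1 regions. So did 14 of the 50 tiles with H3K27me3 on 50% or more of their bases. Signals from different cells or chromosomes cannot be told apart here, so the 2 marks need not have been on the same nucleosomes.

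**Figure D4:**
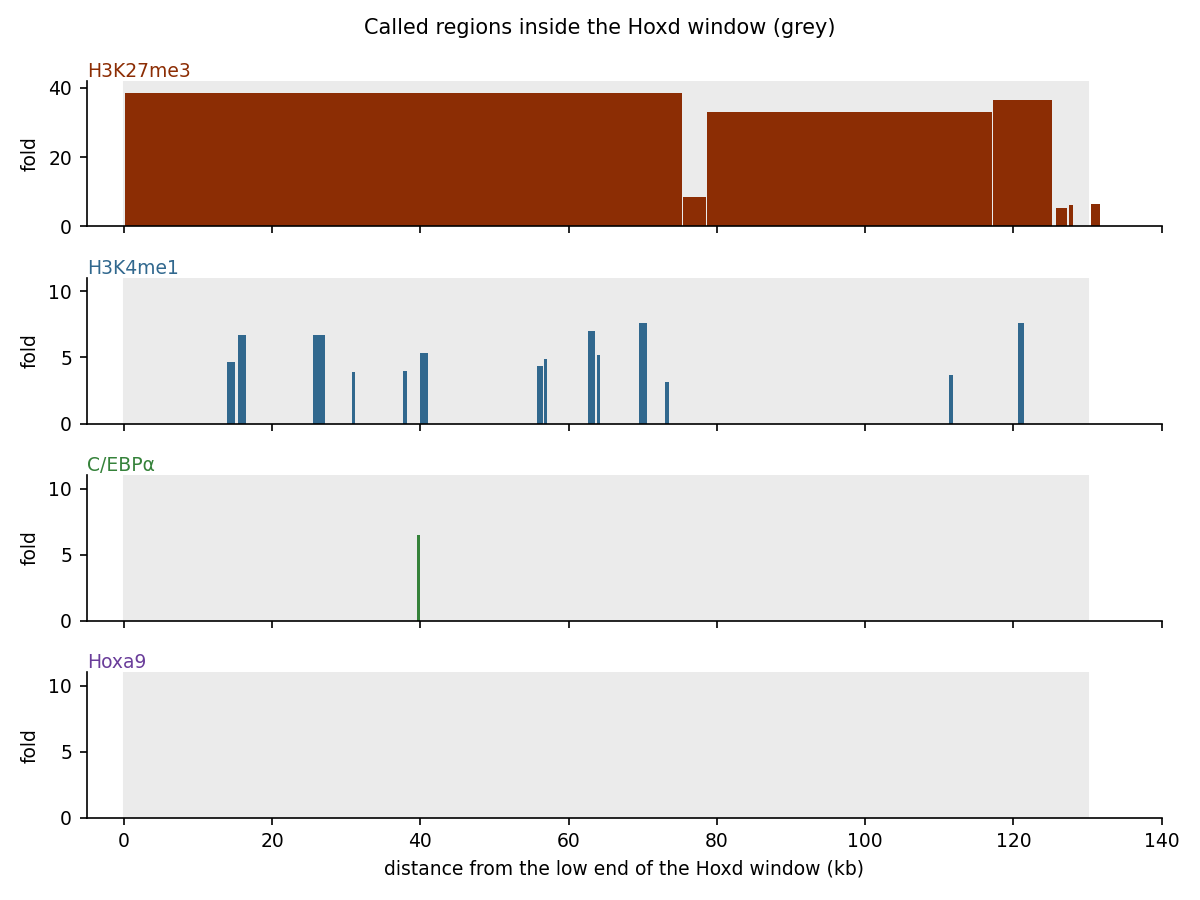
Called regions inside the Hoxd window, drawn as bars of the row's fold enrichment against distance in kb from the window's low end. Bars narrower than 0.4 kb are drawn 0.4 kb wide. The H3K4me1 regions number 12 below 75 kb and 2 above, and the C/EBPα peak stands near 40 kb.

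The H3K4me1 regions were unevenly spread. The widest H3K27me3 region held 12 of them, 1.60 per 10 kb, and the region of 38443 bp held 1, at 74591327 to 74591806 (fold enrichment 3.67). No H3K4me1 was called for 37.751 kb between 74553575 and 74591327. The last one, 74600649 to 74601401, lay at the Hoxd1 end and had the highest fold enrichment of the 14, 7.58.

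Nearest to the Evx2 end were regions from 74493987 to 74494975 and from 74495400 to 74496452, with fold enrichments of 4.65 and 6.67. The widest, 1606 bp from 74505523 to 74507128, followed at 6.67 with 77 tags. These 3 had 47.9 to 50.6 tags per kb, above the list's median of 40.6. Weaker regions lay from 74510734 to 74511181 (3.92, with 14 tags, the lowest count in that list) and from 74517612 to 74518214 (4.0). A stronger one, 74520018 to 74521092, had 5.35 and 47 tags.

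Further towards the Hoxd1 end came close pairs at 74535756 to 74536574 (4.37) with 74536663 to 74537101 (4.92, also with 14 tags), and at 74542562 to 74543496 (6.99) with 74543856 to 74544298 (5.17). The members of these pairs were 88 and 359 bp apart. A region from 74549436 to 74550628 had 7.57 and 57 tags, and one from 74553058 to 74553575 had 3.14, the lowest fold enrichment of the 14. The 14 regions thus ran from 3.14 to 7.58.

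In strength they resembled the list at large. Their median fold enrichment was 5.05, against 4.84 over all 100189 H3K4me1 regions, 5.13 over the 6864 that touched H3K27me3 and 6.30 over those that touched a factor peak. Their median width was 786 bp against 768. None of the 14 reached a fold enrichment of 10, which was rare in the list too: 96% of its regions had 9.67 or lower.

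**Figure D5:**
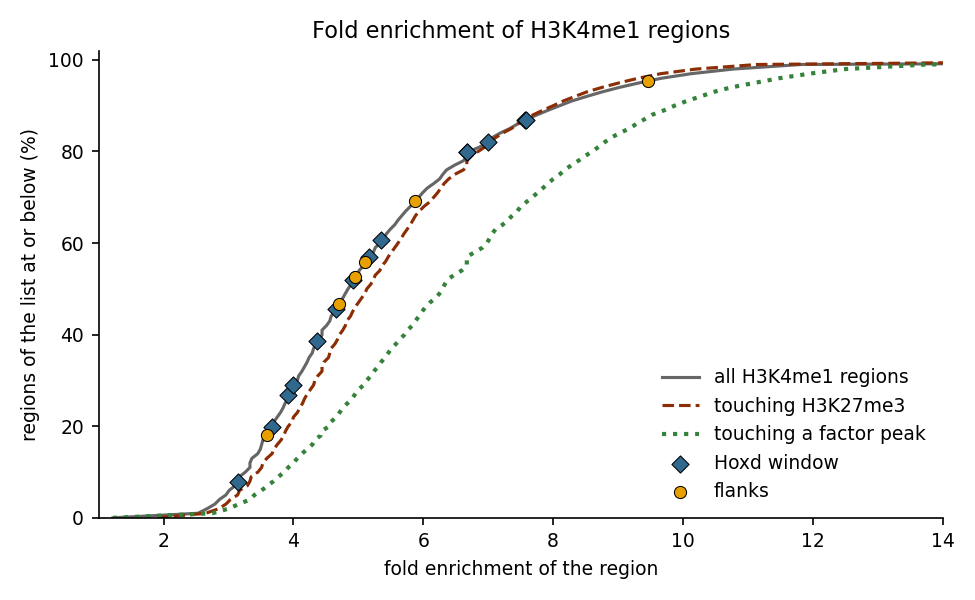
Cumulative share of H3K4me1 regions (y axis, percent at or below) by fold enrichment (x axis) for the whole list, for regions touching H3K27me3 and for regions touching a Hoxa9 or C/EBPα peak. Diamonds mark the 14 regions of the Hoxd window and circles the 6 of its flanks, at their place in the whole list. The window's regions run from 3.14 to 7.58, and the highest circle is the flank region at 9.46.

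The distance to the nearest H3K4me1 summit was read for the summit of each of the 6 H3K27me3 regions. It was 224 bp for the widest region, whose summit lay 40.2 kb inside the window and which held 12 H3K4me1 regions. For the region of 8010 bp it was 34 bp. Distances were not computed over the whole list, so none of these can be called unusual. In the other 4 the distance ran from 3232 to 6712 bp.

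The window held 1 peak of the 2 factors, a count near that of the genome at large. No Hoxa9 peak was called in the window, where the span of the lists had 0.256 per 100 kb. Of all 130 kb tiles 78.7% had none either, so the absence was common. Hoxa9 peaks were also missing from 104 of the 135 H3K27me3 blocks of 50 kb or more. Over the whole list 1.49% of Hoxa9 peaks touched H3K27me3.

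C/EBPα had 0.769 peaks per 100 kb in the window against 1.03 over the span of the lists, and 70.4% of tiles held 1 or fewer. The single C/EBPα peak of the window, 74519491 to 74519892, was low in its list by tags and score. It had 15 tags, the fewest of any C/EBPα peak. Its fold enrichment of 6.49 was as high as or higher than 38.7% of the list, whose median was 7.74. Its p score, which is larger the smaller the p-value the caller gave, was 76.51, and 13.7% of the list scored as low or lower. With a score of 100 or more required, the peak was lost. It lay inside the widest H3K27me3 region, 440 bp from that region's summit, a distance not computed over the whole list. Of all C/EBPα peaks 2.09% touched an H3K27me3 region. With 97.5% of the window under H3K27me3, however, the overlap nearly follows from the cover alone for this peak. The nearest H3K4me1 region was 125 bp away and did not touch it, whereas 73.6% of C/EBPα peaks touched one. None of the window's 14 H3K4me1 regions touched a peak of either factor, against 21.9% in the list. The share was 9.05% among H3K4me1 regions touching H3K27me3 and 6.83% among those touching a region of 10 kb or more, so 0 of 14 is near the share of that class.

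Outside the block, the nearest factor peaks stood on the Evx2 side. At 74447314 to 74447753 a Hoxa9 peak and, at 74447288 to 74447929, a C/EBPα peak had summits 2 bp apart. The Hoxa9 peak ended 32444 bp below the first H3K27me3 base of the block. Over the whole list 56.9% of Hoxa9 peaks touched a C/EBPα peak. The Hoxa9 peak had 17 tags, the fewest of its list, and a fold enrichment of 5.58. The C/EBPα peak had 31 tags and 9.39.

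Both peaks lay in the strongest H3K4me1 region of the area, 74446659 to 74448555, with 100 tags and a fold enrichment of 9.46, as high as or higher than 95.5% of the list. Overall 82.4% of Hoxa9 peaks touched H3K4me1. A second C/EBPα peak stood close by at 74444000 to 74444661 (fold enrichment 9.40, 41 tags), its summit 87 bp from that of an H3K4me1 region of 1172 bp with 5.10. Neither place touched H3K27me3, the nearest of which was 9452 bp from the strong H3K4me1 region. The other 3 H3K4me1 regions of the low flank, between 74414703 and 74417788, had 3.6 to 4.95 and no factor peak.

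The rest of the flanks was sparse. The low flank held a further C/EBPα peak at 74324765 to 74325288 (fold enrichment 7.72), 89414 bp from any H3K4me1. The high flank held 1 H3K4me1 region, 74717606 to 74718192 (5.87), 1 C/EBPα peak, 74657389 to 74657858 (6.84), and 1 Hoxa9 peak, 74900130 to 74900606 (5.15, 20 tags). That Hoxa9 peak touched no other row, and the nearest H3K4me1 was 181937 bp away. All factor peaks of the flanks were under a fold enrichment of 10, and both Hoxa9 peaks had a score under 100. A fold enrichment under 10 was usual: the medians were 6.06 for Hoxa9 and 7.74 for C/EBPα. The highest of these peaks, at 9.40, was as high as or higher than 61.4% of C/EBPα peaks. Of the Hoxa9 list 28.1% scored as low as or lower than the peak of the high flank, at 65.15.

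The windows of the other clusters were read for the same features. The Hoxa window held 17 H3K4me1 regions, 10 per 100 kb, beside the 10.8 at Hoxd, and the Hoxb window 7, or 3.50 per 100 kb. The Hoxc window held 9, or 6.43 per 100 kb. Hoxa9 peaks numbered 0, 1 and 1 in the Hoxa, Hoxb and Hoxc windows, and C/EBPα peaks 1, 0 and 0. Among the 135 H3K27me3 blocks of 50 kb or more, the Hoxd block ranked 20 in H3K4me1 regions per 10 kb, with 1.06 against a median of 0.593 and a highest of 1.90, so its H3K4me1 was above the median and not exceptional.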

How the data were processed

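Lists from 4 ChIP-seq precipitations were read; the input was not analysed here. The submitters' processing notes name build mm9, MACS 1.4, BWA 0.6.2 and CASAVA 1.8.2. The caller's settings and control were not given in the sources used here. Every deposited list gave, per the file headers, positions, tag counts, a p score (10 times −log10 of the p-value), a fold enrichment ratio and a false discovery rate in percent. All were made by the authors per library and were used only within a list. The score is not a safe rank near 3100, a value shared by 2558 H3K27me3 regions. As to depth, library totals were likewise not given. The fewest tags in a called row were 17 (Hoxa9), 15 (C/EBPα), 14 (H3K4me1) and 20 (H3K27me3), and weaker sites are missing.

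Rows touching the window by at least 1 bp were counted with Python 3.11.15, numpy 2.4.6 and pandas 2.3.3. The interval code was tested on 100 simulated pairs of lists, with 0 mismatches. With 1 library per group no test was made. Tiles were laid over 2574 Mb between the first and last row of each chromosome. Named were all rows in the window and, in the flanks, the nearest, the strongest and the widest rows; flank rows beyond these were chosen after their values were seen. Members and lists were chosen with earlier results of these data known.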

Additional observations from a re-analysis of the deposited data

How the results depend on the processing

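Of 97 alternatives to 13 results, 56 kept the value or moved a count by no more than 1.5 times. FDR limits of 5% removed no row of any list, so those outcomes were fixed in advance. Of the alternatives run for the 0 Hoxa9 peaks of the window, only the extended window could have added one, and it too had 0. No paired analysis was possible because each group has 1 library. Shares of bases were held to an exact 95% binomial interval, which is very narrow for so many bases.

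A score of 100 or more left 97.1% of the window and 1.89% of the flanks under H3K27me3, 7.28% of the window under H3K4me1, 0 C/EBPα peaks in the window and 0 Hoxa9 peaks in the flanks. A fold enrichment of 10 or more left H3K27me3 on 93.6% and 0.316%, in 3 regions of the window, and 0 H3K4me1 regions in the window (0% of its bases, 0 touching H3K27me3) and in the flanks, 0 C/EBPα peaks in both and 0 Hoxa9 peaks in the flanks. The upper 50% of each list by score left H3K27me3 on 97.1% and 1.81%, 7 H3K4me1 regions in the window, all 7 touching H3K27me3 (5.85% of its bases), and 2 in the flanks, 0 C/EBPα peaks in the window and 1 in the flanks, and 0 Hoxa9 peaks in the flanks.

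Drawing the window in by 10 kb gave 99.7% under H3K27me3 and 9.64% under H3K4me1, and extending it gave 85.4% and 7.57%. Flanks of 300 kb had 3.34% under H3K27me3. Joining regions under 5 kb apart gave 1 H3K27me3 region of 131533 bp on 99.8% of the window and 3.15% of the flanks, with 8 H3K4me1 regions on 15.4% of the window and 3 in the flanks. Joining under 1 kb gave 1 region of 127822 bp on 98.3%, and H3K4me1 on 9.40%. The place among tiles became 2 with the grid from position 0, chosen after seeing the data.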

Other observations

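H3K27me3 in the high flank came in groups. Regions from 74647454 to 74662558 on chromosome 2 formed one of 5, of which the last, 74657709 to 74662558, was the widest in the flanks at 4850 bp, with a fold enrichment of 8.13. The C/EBPα peak of the high flank, with 19 tags, touched that region. A second group of 4 lay between 74800468 and 74805556, with fold enrichments from 4.74 to 7.11.

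The strongest H3K27me3 region of the flanks stood far from the cluster, at 74974179 to 74977967. It had a fold enrichment of 15.91 and 136 tags per kb, and was the single flank region to reach a fold enrichment of 10. In the low flank the strongest was 73966914 to 73969174 at 8.46. These rows were named after their values were seen where the naming rule did not cover them.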
